A study of Mus musculus with 8 samples.

Results

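Signalling downstream of type I interferon was described in mouse plasmacytoid dendritic cells (pDC) through 9 genes: the receptor chains Ifnar1 and Ifnar2, the kinases Jak1 and Tyk2, the transcription factors Stat2 and Irf9, and the feedback inhibitors Socs1, Socs3 and Usp18. They were chosen by name, as every non-control probe of the arrays that carried one of these gene names, which gave 11 probes. The choice was made with earlier results of these data known. Each gene was read at its probe with the highest mean signal over all 8 arrays. All 9 were tested, among 19818 tested genes and 36095 named features. The study compared pDC sorted as Sca-1- with pDC sorted as Sca-1+, 4 samples each, and its title asks whether Sca-1 marks developmental stages of pDC that differ in their TLR9 response. Both groups came from female BALB/c mice as bone marrow precursors differentiated in culture with mouse Flt3 ligand, were isolated with magnetic beads and a cell sorter, and were measured without a stimulus named in the labels. Neither the age of the mice nor whether replicates were separate cultures is stated, so p-values here reflect the spread of these samples alone, and that spread may be technical.

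Type I interferons bind a receptor of the chains IFNAR1 and IFNAR2, whose cytoplasmic parts hold the kinases TYK2 and JAK1. The kinases phosphorylate STAT proteins, and STAT2 joins IRF9 in the complex ISGF3, which switches on genes through a DNA element called ISRE, while STAT dimers bind an element called GAS. SOCS1, SOCS3 and USP18 are products of the pathway, or of related cytokine pathways, that act back on the receptor and its kinases. pDC are known as strong producers of type I interferon, and they also respond to it through this receptor.

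The promoters of the members were searched for both elements, since several members are themselves known targets of the pathway. RefSeq windows of 250 bases before to 50 bases after the transcript start (GRCm38.p6) were found for 8 of the 9 genes, with 2 windows for Irf9. Usp18 had no window, so its promoter was not searched. The ISRE core was written as GAAA, any 2 bases and GAAA again, and the GAS core as TTCNNNGAA, both strands were read, and the motifs may overlap each other. The ISRE core occurred in the windows of Socs1 and Stat2 and in 3.44% of all 32851 windows. The GAS core occurred in those of Socs3, Ifnar2 and Ifnar1 and in 8.3% of all windows. Windows were found for 27 of the 36 listed type I interferon target genes, of which 12 had the ISRE core and 8 the GAS core in a window. Counted by gene in the same way, 3.99% and 9.55% of all 27025 genes with a window had them. The stretches with a match lying wholly before the start are shown 5′ to 3′ in the direction of the gene, with the matched bases in capitals.
Socs1: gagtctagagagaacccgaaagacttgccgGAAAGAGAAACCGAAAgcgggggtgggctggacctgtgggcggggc
Socs3: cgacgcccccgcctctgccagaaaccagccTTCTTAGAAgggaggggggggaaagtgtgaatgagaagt
Stat2: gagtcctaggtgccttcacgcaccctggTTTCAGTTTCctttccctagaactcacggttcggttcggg
Ifnar2: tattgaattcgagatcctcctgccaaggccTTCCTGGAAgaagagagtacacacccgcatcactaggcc
The Socs1 stretch (chr16:10785574-10785649, minus strand) held 2 overlapping ISRE matches, from position -83 to -68 relative to the start. The Socs3 stretch (chr11:117969482-117969550, minus strand) held its GAS match at -154 to -146. In the Stat2 stretch (chr10:128270248-128270315, plus strand) the ISRE match lay at -222 to -213 on the opposite strand, so its capitals are the reverse complement of the core. The Ifnar2 stretch (chr16:91372539-91372607, plus strand) held its GAS match at -214 to -206. A match is a description of these letters and does not show binding.

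The share of non-control spots well above background was 45.9% to 54.9%, and no array had a saturated spot. Arrays with the same replicate number shared a slide, always with the Sca-1- sample at position 1 and the Sca-1+ sample at position 2, so group and position cannot be told apart. Slides 1 to 3 were scanned on 1 day with extraction protocol GE1_105, and slide 4 on a later day with GE1_107. In 59.5% of tested genes both slide 4 levels lay outside the range of the other 6 arrays. Ly6a, which encodes Sca-1, was higher in Sca-1+ samples (log2 difference 4.65 ± 0.24 SE, limma adjusted p = 0.000625), which checks the labels only. All 14 pDC markers were tested and their mean level was 5.93 to 6.23 in Sca-1- and 6.27 to 6.41 in Sca-1+ samples. Those ranges did not overlap. The fit with slides as blocks called Lag3, Tlr7 and Ccr9 higher, while it called 2.1% of all genes higher and 4.12% lower. Of the 14 differences 11 were positive (55.4% of those over all genes were), with a median of 0.23 (-0.042 on slide 2). The largest were those of Klk1 (0.81), Lag3 (0.73), Tlr7 (0.58) and Ccr9 (0.55). Irf8 (-0.0048), Tcf4 (0.064), Runx2 (-0.04), Tlr9 (0.073) and Ly6d (-0.14) differed little or were lower. Of the B cell markers 3 of 7 were tested (Ms4a1 and Pax5 were among those that were not), with a mean level of 1.18 to 1.69 in Sca-1- and 1.22 to 1.55 in Sca-1+ samples. Of these Cd22 had groups that did not overlap, with means of 2.74 and 3.20 (limma adjusted p = 0.294), as had 6.95% of all genes. The groups overlapped in Cd79b (difference 0.18) and in Cd79a (-0.34). Of the T and NK cell markers 3 of 9 were tested, Cd3e, Nkg7 and Il7r, each well above background on all 8 arrays, with a mean level of 2.84 to 3.22 and 3.17 to 3.41, while Cd3d, Cd3g and Ncr1 were not tested. Conventional DC markers (6 of 8 tested) had a mean level of 1.70 to 2.38 in Sca-1- and 1.44 to 2.65 in Sca-1+ samples, monocyte and macrophage markers (4 of 7) 2.79 to 3.70 and 2.63 to 3.58, and granulocyte and basophil markers (8 of 8) -1.79 to 1.29 and -2.37 to 0.67. None of these was called unpaired, but with the slide as a block Csf1r (-1.19, groups not overlapping, limma adjusted p = 0.00637), Zbtb46 (-1.20, 0.0131) and Prtn3 (-0.74, 0.0453) were lower and Ly6c1 (0.56, 0.0223) was higher in Sca-1+ samples. Progenitor markers (6 of 6 tested, 2 called lower, Cd93 and Sox4) had 0.20 to 0.97 in Sca-1- and -0.71 to 0.055 in Sca-1+ samples. Over all genes 1.58% were called lower in the unpaired fit. The part of these cell types in the values below was not tested, and in sorted populations fewer cells of a type and less RNA per cell cannot be told apart.

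None of the 9 pathway genes passed limma's unpaired test between Sca-1+ and Sca-1- pDC (adjusted over all genes, threshold 0.05), and 1, Socs1, had an unadjusted p under 0.05. Of all tested genes 1.71% were called (0.126% higher and 1.58% lower in Sca-1+ samples) and 8.96% had such a p. The receptor chains, Jak1 and Irf9 differed by 0.071 to 0.096 on the log2 scale, and the feedback genes by 0.38 to 0.63. All 9 differences were positive, as were 55.4% of those over all genes, and their median was 0.21 against 0.029 for all genes. Socs1 was the single member whose groups did not overlap, against 6.95% of all genes (1.91% higher and 5.04% lower in Sca-1+ samples). Within slides 6 of the 9 were higher in the Sca-1+ sample on all 4 slides, against 18.4% of all genes, and none was lower on all 4, against 17.8%. The slide as a block in the fit also called none of the 9, while it called 6.22% of all genes.

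**Figure D1:**
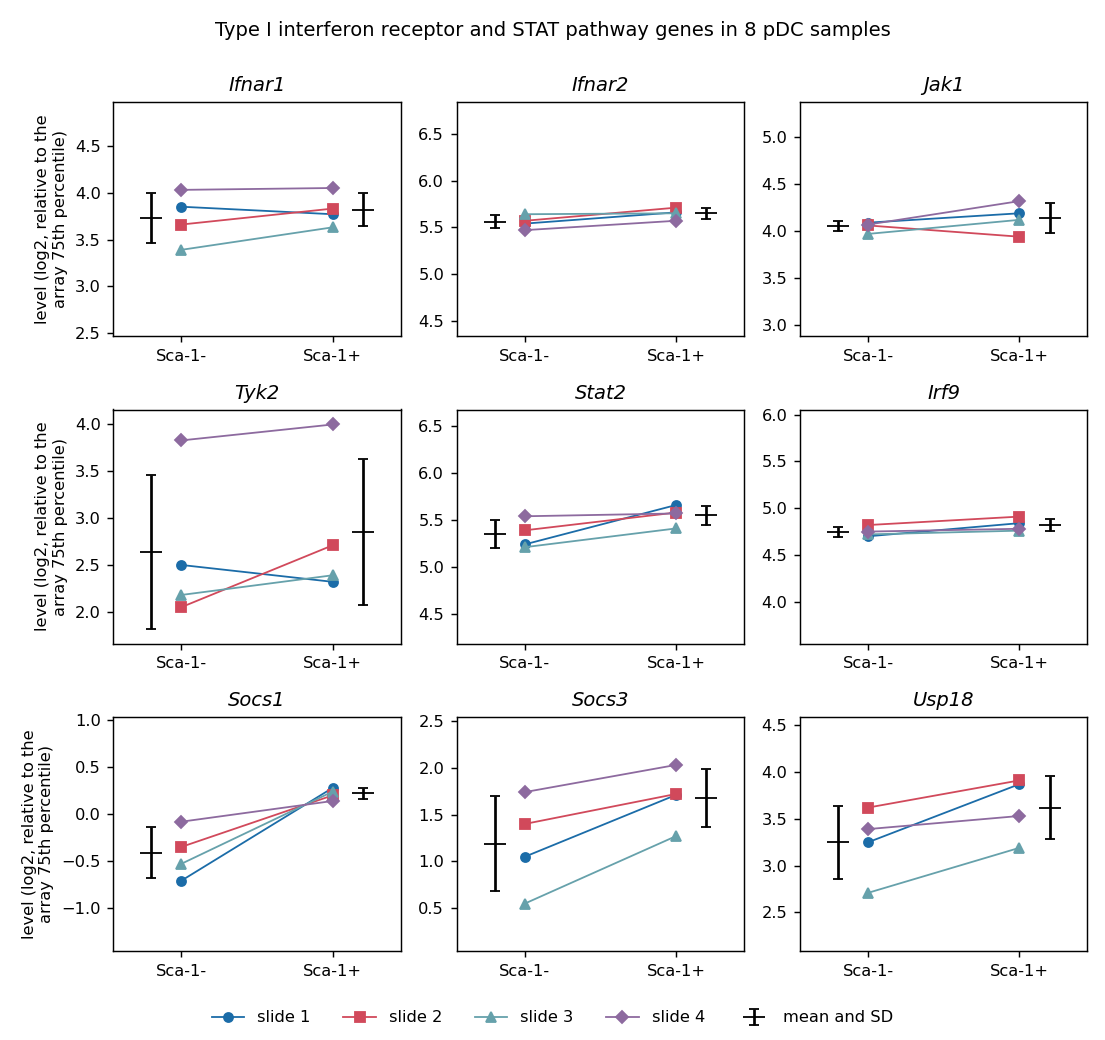
Level of each of the 9 genes in the 8 samples (y axis, log2 processed signal relative to the array's 75th percentile, each panel spanning the same 2.5 log2 units), with lines joining the arrays of a slide and black bars for the mean and SD of 4 samples. Socs1 is the panel in which the groups separate, and Tyk2 the one in which slide 4 lies far above slides 1 to 3.

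The receptor chains were expressed in both populations at close levels. Ifnar2, the chain that carries the main ligand-binding and STAT-docking parts, read 5.54, 5.57, 5.64 and 5.47 in Sca-1- replicates 1 to 4. The Sca-1+ values of Ifnar2, in the same order, were 5.66, 5.71, 5.65 and 5.57. A level here is a log2 signal relative to the array's 75th percentile, and it does not compare one gene with another. The groups overlapped, and the whole span over 8 arrays was 0.24. The difference was 0.091 ± 0.11 SE (95% confidence interval -0.16 to 0.34, limma adjusted p = 1.00), and the fold was 1.06. The probe lies on chromosome 16, 91394044 to 91394103 (mm9), and is listed for 2 RefSeq transcripts of the gene, so forms of the receptor chain were not told apart.

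Ifnar1, the chain that holds TYK2, was covered by 3 probes. Its brightest probe (chromosome 16, 91510673 to 91510732, mm9) read 3.85, 3.66, 3.39 and 4.03 in Sca-1- and 3.77, 3.83, 3.63 and 4.05 in Sca-1+ replicates 1 to 4. On slide 1 the Sca-1- sample was higher, and on slides 2 to 4 the Sca-1+ sample. The difference was 0.093 ± 0.17 SE (interval -0.30 to 0.48, limma adjusted p = 1.00). Dropping Sca-1- replicate 3 turned it to -0.019, dropping Sca-1+ replicate 4 gave 0.016, and dropping Sca-1- replicate 4 gave 0.19. Another probe has 60 bases, while the files place it over 1587 bases of the genome (chromosome 16, 91503764 to 91505350, mm9), and it is shown for that split position. No gene model was used to place it.
Ifnar1 split probe: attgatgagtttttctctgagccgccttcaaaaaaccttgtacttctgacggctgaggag
With this probe the Ifnar1 difference was 0.17 ± 0.25 SE, and with the last probe (91506635 to 91506693) it was 0.31 ± 0.20 SE, both positive on all 4 slides. Neither passed when every probe was tested on its own (limma adjusted p = 1.00 and 0.888), and the 3 probes had the same sign. With the slide as a block the split probe had an interval of -0.021 to 0.36 (limma adjusted p = 0.261). The last probe then had one of 0.079 to 0.55, which left out 0 but did not pass (limma adjusted p = 0.13). The mean over all Ifnar1 probes gave a difference of 0.19.

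Neither kinase passed the test. Jak1, which is bound to IFNAR2 and serves many other cytokine receptors, read 4.09, 4.06, 3.97 and 4.07 in Sca-1- and 4.19, 3.94, 4.12 and 4.32 in Sca-1+ replicates 1 to 4. Replicate 2 ran against the other slides. The difference was 0.096 ± 0.12 SE (interval -0.19 to 0.38, limma adjusted p = 1.00, chromosome 4, 100825094 to 100825153, mm9). Dropping Sca-1+ replicate 4 gave 0.037, and dropping Sca-1+ replicate 2 gave 0.16.

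Tyk2, the kinase bound to IFNAR1, varied by slide more than by group. It read 2.5, 2.05, 2.18 and 3.83 in Sca-1- and 2.32, 2.71, 2.39 and 4.00 in Sca-1+ replicates 1 to 4. Both slide 4 samples were far above the rest, by 1.56 on average, a gap that 5.34% of tested genes reached in size. The difference between groups was 0.21 ± 0.49 SE (interval -0.91 to 1.33, limma adjusted p = 1.00, chromosome 9, 20909321 to 20909380, mm9), the widest interval of the 9. With the slide as a block the interval narrowed to -0.14 to 0.57 (adjusted p = 0.419). Without Sca-1+ replicate 4 the unpaired difference was -0.17, without Sca-1- replicate 4 it was 0.61, and without both it was 0.23. Of the other members, Ifnar1 and Socs3 also had both slide 4 levels above all other arrays, by 0.35 and 0.60 on average.

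Stat2 and Irf9, which are both parts of ISGF3, were close in both populations. Stat2 read 5.24, 5.39, 5.21 and 5.54 in Sca-1- and 5.66, 5.58, 5.41 and 5.57 in Sca-1+ replicates 1 to 4. It was higher in the Sca-1+ sample on each slide, least on slide 4 (0.031) and most on slide 1 (0.41), and the groups overlapped. The difference was 0.21 ± 0.13 SE (interval -0.088 to 0.50, limma adjusted p = 0.823, chromosome 10, 127729834 to 127729893, mm9).

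Irf9, the DNA-binding part of ISGF3, varied least of the 9 genes. It read 4.70, 4.82, 4.72 and 4.75 in Sca-1- and 4.84, 4.91, 4.76 and 4.78 in Sca-1+ replicates 1 to 4, a span of 0.2 over 8 arrays. The difference was 0.071 ± 0.11 SE (interval -0.18 to 0.32, limma adjusted p = 1.00, chromosome 14, 56228806 to 56228865, mm9). Without Sca-1+ replicate 2 it was 0.042, and with normexp background correction 0.041. Its probe is listed for 3 RefSeq transcripts.

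Socs1, an inhibitor that binds JAK kinases and is itself a target of interferon signalling, had the largest difference of the 9. It read -0.71, -0.35, -0.53 and -0.081 in Sca-1- and 0.28, 0.20, 0.24 and 0.14 in Sca-1+ replicates 1 to 4. The lowest Sca-1+ sample lay above the highest Sca-1- sample, and both of these came from slide 4. Means and SDs over 4 samples were -0.41 ± 0.27 for Sca-1- and 0.22 ± 0.059 for Sca-1+ pDC. The difference was 0.63 ± 0.15 SE, or 1.55-fold (interval 0.28 to 0.98), with an unadjusted p = 0.0032 and a limma adjusted p = 0.123 that did not pass. Within slides 1 to 4 it was 0.99, 0.54, 0.76 and 0.23. Socs1 passed only in fits that left out slide 4 material: 0.74 when Sca-1- replicate 4 was dropped (limma adjusted p = 0.0361), and 0.77 when both samples of slide 4 were dropped (limma adjusted p = 0.0198). Over all 21 alternatives the adjusted p ranged from 0.0198 to 0.835. The probe (chromosome 16, 10783951 to 10784010, mm9) was well above background on all 8 arrays, at a processed signal of 120 to 438.

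Socs3, an inhibitor best known from receptors that signal through STAT3, varied more between slides. It read 1.05, 1.40, 0.55 and 1.74 in Sca-1- and 1.71, 1.72, 1.27 and 2.03 in Sca-1+ replicates 1 to 4. The groups overlapped, yet the Sca-1+ sample was the higher on each slide, by 0.66, 0.32, 0.72 and 0.28. The difference was 0.49 ± 0.27 SE, or 1.41-fold (interval -0.13 to 1.12, limma adjusted p = 0.748, chromosome 11, 117827480 to 117827539, mm9). Without Sca-1- replicate 3, its lowest sample, the difference was 0.28.

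Usp18, which removes ISG15 from proteins and also blocks the receptor at IFNAR2, read 3.25, 3.62, 2.71 and 3.39 in Sca-1- replicates 1 to 4. In Sca-1+ replicates 1 to 4 it read 3.87, 3.91, 3.19 and 3.53. The Sca-1+ sample was higher on each slide, by 0.61, 0.28, 0.47 and 0.14, and the groups overlapped. The difference was 0.38 ± 0.24 SE, or 1.30-fold (interval -0.17 to 0.92, limma adjusted p = 0.838, chromosome 6, 121220874 to 121220933, mm9). Without Sca-1- replicate 3 it was 0.20. With the slide as a block Socs3, Socs1 and Usp18 came nearest to the threshold among the 9, with adjusted p of 0.0581, 0.0586 and 0.0977, and with intervals of 0.23 to 0.76, 0.29 to 0.97 and 0.12 to 0.63 that did not include 0.

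**Figure D2:**
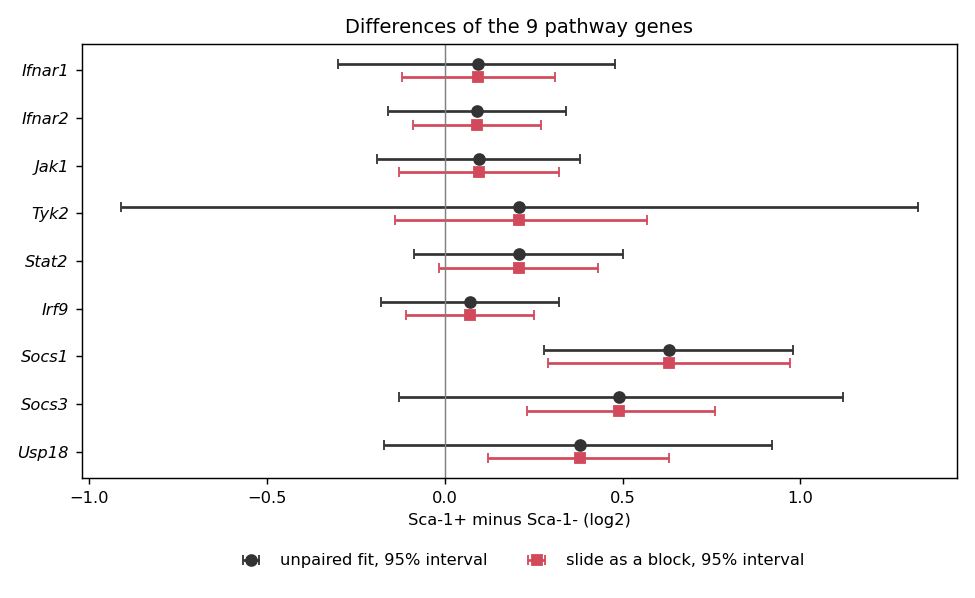
Difference Sca-1+ minus Sca-1- (x axis, log2) of each of the 9 genes with its 95% confidence interval, from the unpaired fit (black circles) and with the slide as a block (red squares). The unpaired interval of Socs1, 0.28 to 0.98, is the single one of the unpaired intervals that leaves out 0.

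The members' levels over the 8 arrays moved together in part. Stat2 and Socs3 had the highest Pearson r of the 36 pairs (0.91), followed by Stat2 with Socs1 (0.86), Ifnar1 with Tyk2 (0.84) and Irf9 with Usp18 (0.84). With group means removed these were 0.87, 0.76, 0.83 and 0.78. Ifnar1 and Ifnar2, the chains of the same receptor, had -0.49, and -0.84 with group means removed. These arrays share slides and 1 scaling, and slide 4 stands apart in many genes, so these values describe 8 arrays only. Among tested genes the named transcripts most like Ifnar1 included Nfe2l1 (r = 0.978), after a transcript known only by its position (0.989) and an unnamed cDNA (0.986). Those most like Stat2 were a transcript known only by position (0.985), Pou2f2 (0.971) and Nudt22 (0.97), and those most like Usp18 were Olfr209 (0.994), Slc35b2 (0.978) and Khk (0.971). With 8 arrays such values are common: 266 genes had r over 0.9 with Ifnar1, 78 with Stat2 and 44 with Usp18.

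**Figure D3:**
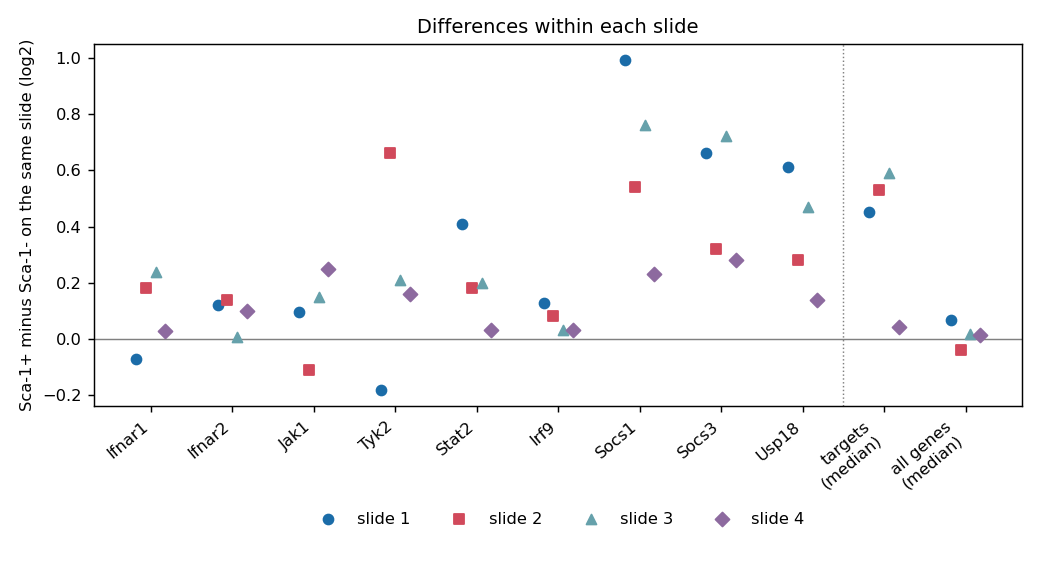
Difference between the Sca-1+ and the Sca-1- sample of the same slide (y axis, log2) for each of the 9 genes, and the median of the same difference over the 34 tested interferon target genes and over all tested genes. Slide 4 (diamonds) gives 0.23 for Socs1 against 0.54 to 0.99 on slides 1 to 3, and a target gene median of 0.045 against 0.45 to 0.59.

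Slide 4 gave the smallest within-slide difference in 5 of the 9 members, Stat2, Irf9, Socs1, Socs3 and Usp18. Over all genes with a positive difference this held for 27.1%. For Irf9 the gap was slight, 0.033 on slide 4 against 0.034 on slide 3. Whether the scan, the extraction protocol or the samples of slide 4 bear on this was not tested.

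The other genes of the pathway were read from 6 lists that hold 98 further genes, 84 of them tested. None was called in limma's unpaired test (1.71% of all genes were), and 14 of the 84 had an unadjusted p under 0.05 (8.96% of all genes). With the slide as a block 8 were called, 7 higher and 1 lower in Sca-1+ pDC, against 2.1% of all genes higher and 4.12% lower. The fits with and without the slide therefore differ in count here, and the unpaired one is the main one. The unpaired fit counts differences between slides as spread, so a lack of calls there does not show equal levels.

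Other Janus kinases and STATs gave 0 calls of 7 tested in either fit, with 0 at an unadjusted p under 0.05 in limma's unpaired test, and a median of 0.14. Stat5a, a STAT of growth factor receptors, read 2.73 to 2.82 in Sca-1- and 2.52 to 2.61 in Sca-1+ samples. Those groups did not overlap, but the difference was -0.21 ± 0.11 SE (adjusted p = 0.698).

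Other SOCS genes and JAK-STAT inhibitors gave 0 calls of 16 tested in either fit, 1 unadjusted p under 0.05 in limma's unpaired test, and a median of -0.021. That p belonged to Cish, a SOCS family gene induced by STAT5, with a difference of 0.88 ± 0.22 SE (limma adjusted p = 0.125). The Cish probe cleared background on 2 of 4 Sca-1- and 4 of 4 Sca-1+ arrays, and it passed when Sca-1- replicate 4 was dropped (1.03, adjusted p = 0.0399) or both samples of slide 4 (1.06, adjusted p = 0.0347). With normexp background correction the Cish difference was 0.25 (limma adjusted p = 1.00). Isg15, the ubiquitin-like protein that USP18 removes, differed by 0.33 ± 0.31 SE (adjusted p = 1.00), and its other probe by 0.29. The Isg15 difference was 0.17 when Sca-1- replicate 4 or Sca-1+ replicate 2 was dropped, and 0.57 when Sca-1+ replicate 4 was.

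Of 8 other interferon regulatory factors none was called unpaired and 1 with the slide as a block. This was Irf7, the factor that amplifies interferon alpha production, which read 4.08, 4.37, 3.57 and 4.23 in Sca-1- and 4.89, 5.50, 4.61 and 5.0 in Sca-1+ replicates 1 to 4. Those groups did not overlap, and the Irf7 difference was 0.94 ± 0.24 SE (limma adjusted p = 0.143 unpaired, 0.00607 with the block). Of 9 related cytokine receptor chains none was called unpaired and 2 had an unadjusted p under 0.05 in limma's unpaired test. Of these 9 differences 6 were positive, with a median of 0.042. Il21r, the interleukin 21 receptor, was called with the block (0.69 ± 0.22 SE, limma adjusted p = 0.277 unpaired and 0.0406 with the block). Il21r read -1.47 to -1.01 in Sca-1- and -1.14 to -0.24 in Sca-1+ samples. Il6st, named for its opposite direction, had groups that did not overlap and was called in neither fit. Its difference was -0.90 ± 0.21 SE (limma adjusted p = 0.106 unpaired, 0.0671 with the block).

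Interferon ligand genes were dim. Of 19 listed, 15 were on the array and 10 were tested, without Ifnb1, Ifna4 and Ifng. None was called in limma by either fit, 0 had an unadjusted p under 0.05, and the median was 0.13. The lowest p-values belonged to Ifna13 (-0.42 ± 0.43 SE, well above background on 3 of 4 Sca-1- and 1 of 4 Sca-1+ arrays) and Ifna5 (0.24 ± 0.28 SE). Ifna13 was at -0.067 with normexp background correction and at -0.054 without Sca-1+ replicate 4, and Ifna5 at 0.11 with that correction and at 0.052 without Sca-1- replicate 4. Interferon alpha genes are near-identical copies, so a probe can read more than 1 of them.

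None of the type I interferon target genes passed limma's unpaired test. Of 34 tested, 30 differences were positive (55.4% of all genes were), 10 had an unadjusted p under 0.05 (8.96% of all genes), 0 were called, and the median was 0.35 against 0.029 for all genes. This list was chosen with earlier results of these data known, so these counts are a description only. With the slide as a block 5 were higher and 1 was lower, against 2.1% and 4.12% of all genes. Oasl1, an OAS-like inhibitor of Irf7 translation, differed by 1.05 ± 0.40 SE (limma adjusted p = 0.442 unpaired, 0.00808 with the block). Lgals3bp, a secreted galectin-binding protein, differed by 0.66 ± 0.16 SE (0.125 and 0.0303), with 0.58 at its other probe. Ifit2, an interferon-induced antiviral protein, differed by 0.66 ± 0.19 SE (0.206 and 0.0312), and it also passed unpaired when Sca-1- replicate 4 (0.82, limma adjusted p = 0.0399) or all of slide 4 (0.78, limma adjusted p = 0.033) was dropped. Oasl2 and Ifi44, named to complete the count, differed by 1.28 and 0.47. The lower one was Gbp3, a guanylate-binding protein, at -0.61 ± 0.17 SE (0.205 and 0.0215). On slides 1 to 4 the target gene median was 0.45, 0.53, 0.59 and 0.045.

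**Figure D4:**
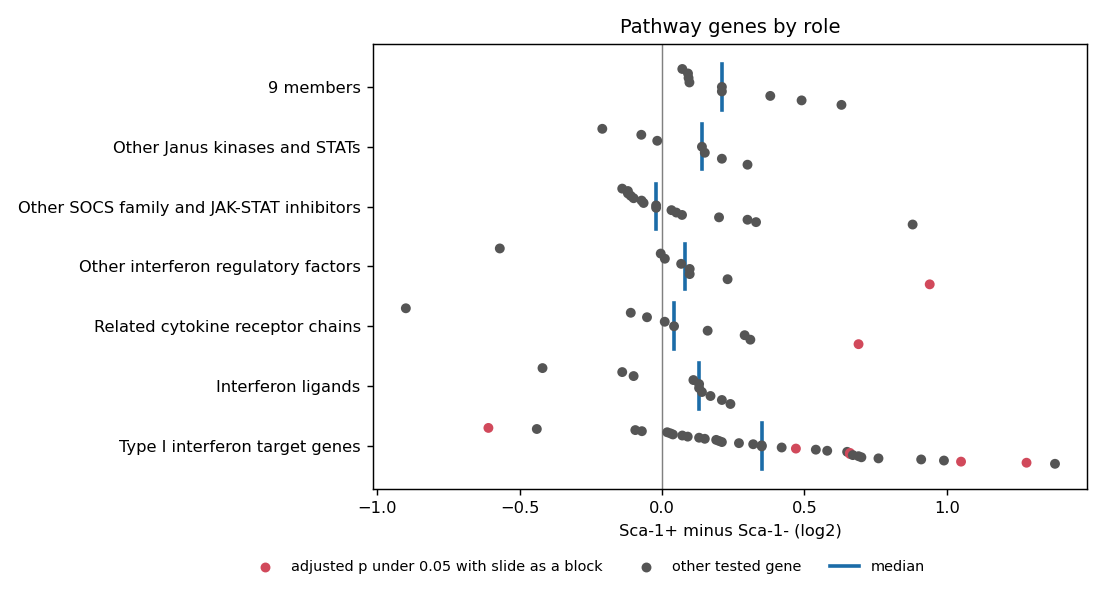
Difference Sca-1+ minus Sca-1- (x axis, log2) of each tested gene, by role (y axis), with the list median as a blue bar and genes that passed with the slide as a block in red. The target gene median, 0.35, lies to the right of that of the 9 members, 0.21, and no member is red.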

How the data were processed

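Per the file headers, the authors read the slides with Agilent Feature Extraction 10.7.3.1, whose deposited processed intensity (linear scale) is background-corrected. Probe positions are mm9, per the file headers. Per the labels, 100 ng of RNA per sample was amplified and labelled with Cy3, and the descriptions also name an amplification of polyA RNA. A value table of the series, also deposited, is on the log2 scale with a median of 3.9 on each array and served as an alternative. Its scale and order follow the processed signal (correlation 0.998 to 1 per array), and its normalization step is not stated in the labels.

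Control and outlier spots (105 to 162 per array) were left out, spots of a probe were averaged as log2, and each array's 75th percentile over 55681 probes (152 to 434 in processed signal) was subtracted. Probe names were updated through RefSeq accession (26582 probes) or symbol (3094), and 26005 kept the file's name. Slide 4's files name 2885 probes otherwise than those of slide 1, whose names were used, and no member is among them. Each gene was read at its brightest probe and tested where at least 4 of 8 arrays had this probe well above background. The groups were compared by lmFit and eBayes of limma 3.58.1 (R 4.3.3; unpaired, two-sided), with Benjamini-Hochberg adjustment over all 19818 tested genes. The fit was tested on simulated data. No arrays held identical values.

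Replicate numbers 1 to 4, from the titles, pair arrays of a slide. Deviations from group means correlated at 0.44, 0.43, 0.64 and 0.89 within pairs 1 to 4, each above a limit of 0.1. Different numbers among replicates 1 to 3 also correlated, at 0.12 to 0.54, so this limit does not tell pairs 1 to 3 apart. The numbers were treated as pairs, and each pair shared a slide. The paired fit had the slide as a block and was an alternative. The others were normexp background correction, another scaling, quantile normalization, the value table, other filters and probe rules, and leaving out arrays. The members and lists were chosen with earlier results of these data known. Named genes are the 9 members, Irf7 and Isg15, up to 4 genes per list and fit past the threshold or otherwise the 2 of smallest p, and the 3 genes most correlated with Ifnar1, Stat2 and Usp18. Promoters are from RefSeq (GRCm38.p6). The exon or UTR position of probes was not analysed here, and some genes that the rule names are not reported here. Figures were drawn with Python 3.11.15 and matplotlib 3.10.9.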

Additional observations from a re-analysis of the deposited data

Results flagged for a closer look

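In Stat5a, Sca-1- replicate 3 (2.73) lay far below the other Sca-1- samples (2.81 to 2.82) for so tight a group, and Sca-1+ replicate 2 (2.52) lay below the other Sca-1+ samples (2.60 to 2.61). The gap was 0.845 and 0.874 of each group's range, above Dixon's 95% limit for 4 samples. Of 42 groups of 4 examined, 2 stood out in this way, and chance alone gives about 1 in 20.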

How the results depend on the processing

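Over 21 alternatives the members' differences kept their sign, except Ifnar1 without Sca-1- replicate 3 (-0.019) and Tyk2 without Sca-1+ replicate 4 (-0.17). When arrays were left out Ifnar1 ranged from -0.019 to 0.19 and Tyk2 from -0.17 to 0.61. The others kept to 0.062 to 0.15 (Ifnar2), 0.037 to 0.17 (Jak1), 0.14 to 0.27 (Stat2) and 0.041 to 0.11 (Irf9) over all 21. The count of members called was 0 in every alternative but those that left out arrays, where it was 0 to 1 (Socs1 without Sca-1- replicate 4 or without replicate 4 in both groups). With the slide as a replicate block it stayed at 0, while the count over all genes went from 339 to 1233 and that of the other pathway genes from 0 to 8. Without the filter on dim probes 182 genes were called over all genes. Leaving out a single array gave 163 (Sca-1- replicate 2) to 463 (Sca-1- replicate 4) calls over all genes. Leaving out a whole slide gave 1, 2, 29 and 879 for slides 1 to 4. The other pathway genes gave 0 to 3 calls, with 2 without Sca-1- replicate 4 (Cish and Ifit2), 1 without Sca-1+ replicate 4 (Oasl2) and 3 without slide 4 (Cish, Ifit2 and Oasl2). With the slide as a block the share of lower calls also fell, 817 of 1233 against 314 of 339 unpaired. Normexp background correction gave the smallest Socs1 difference, 0.48. Socs1, Socs3 and Usp18 stayed positive throughout, at 0.48 to 0.77, 0.28 to 0.68 and 0.20 to 0.52. The number of arrays limits the precision, and the cause of the changes on leaving out arrays of slide 4 was not tested.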
